A study of Mus musculus with 4 samples.

Results

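Retinal ganglion cells with Pou4f3 transcripts were set against ganglion cells in which none was found. Of 3237 cell barcodes in the deposited matrix, 685 passed a ganglion cell gate that included at least 1 unique molecular identifier (UMI, a tag for 1 captured RNA molecule) of Pou4f1. In 205 of these, called the detected class, 2 or more UMIs of Pou4f3 were counted, and in 359, the undetected class, there was none. The other 121 had exactly 1 Pou4f3 UMI and entered neither class. The study profiled single cells from retinas of C57BL/6 mice aged 3 months that carry a GFP reporter of Brn3b, the protein encoded by Pou4f2, and all cells of both classes came through the same sort for GFP. Sorting on this reporter favours cells in which it is active. The labels name 4 retinas in 1 group, and do not say whether they came from separate animals. No barcode can be tied to a retina. The matrix is therefore 1 pooled sample without replicates, no test was possible, and every interval below is a 95% interval for counting error only.

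Pou4f1, Pou4f2 and Pou4f3 encode Brn3a, Brn3b and Brn3c, related POU-homeodomain transcription factors of sensory neurons. In the retina they act during the specification of ganglion cells, the neurons that send visual signals to the brain, and they remain active in overlapping adult subsets. Brn3c is best known from the hair cells of the inner ear, whose maturation requires it, and in the retina it is known from a smaller set of ganglion cells than its relatives. Ganglion cells are divided into many types, told apart by shape, light response and genes such as Opn4 (melanopsin), Foxp2, Spp1 or Cartpt.

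The gate required at least 1 UMI of Slc17a6, the vesicular glutamate transporter gene of ganglion cells, and 3 or more of Slc17a6 plus the ganglion cell gene Rbpms. At most 1 UMI of the horizontal cell gene Lhx1 was allowed, the mitochondrial share of UMIs had to be under 10%, and 12000 or more UMIs were needed. These steps left 1175, 959, 950, 948 and 753 barcodes in turn, and the Pou4f1 term left 685. The detected class held 12021 to 51686 UMIs per barcode with a median of 18411, and the undetected class 12067 to 53709 with a median of 16776. Mitochondrial genes took a median of 4.05% and 3.77% of UMIs. Stmn2 and Elavl4, pan-neuronal ganglion cell genes that the gate did not use, stood at 1081 and 205 CPM (UMIs scaled to the same total in each class) in the detected class and at 1096 and 191 CPM in the undetected class. Both classes therefore carried the markers of their label at close levels.

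Among the 205 barcodes of the detected class, 65 had 2 Pou4f3 UMIs, 43 had 3, 36 had 4 and 61 had 5 or more, with a highest value of 18. The classes were cut at 2 UMIs, and the 121 barcodes with 1 UMI lay just outside. To hold depth equal, each barcode was thinned at random to 12000 UMIs. A Pou4f3 UMI then remained in 285 of 685 gated barcodes (41.6%, 37.9% to 45.4%), against 96.4% for Pou4f1 and 49.9% for Pou4f2. Among 114 barcodes with 3 or more UMIs of Lhx1 and none of Slc17a6, which should lack these genes, Pou4f3 was found in none (a count of 0 allows up to 2.63%). Their full depth was lower, with a median of 13504.5 UMIs against 17429 in the gate. In these barcodes 7.89% held a Pou4f1 UMI and 1.75% a Pou4f2 UMI after thinning.

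**Figure D1:**
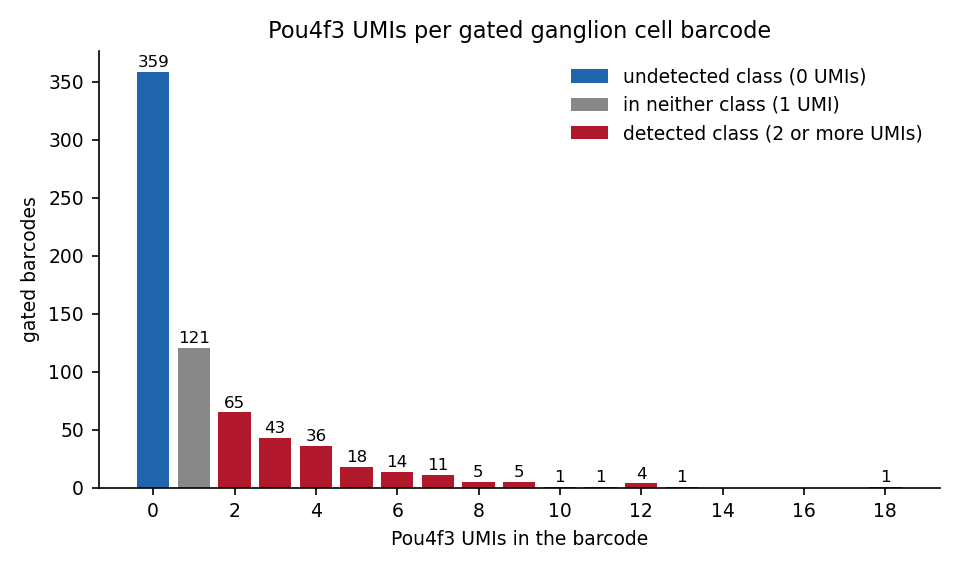
Number of gated barcodes (vertical axis) with each Pou4f3 UMI count (horizontal axis). The 359 barcodes at 0 and the 205 at 2 or more form the compared classes, and the 121 at 1 belong to neither.

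For each gene the UMIs were summed over a class and scaled to CPM, counts per 1000000 UMIs, on the class total with Pou4f3 left out. Of 8705 genes that reached 100 UMIs in the classes together, 116 (1.33%) were 1.5-fold or more higher in the detected class and 282 (3.24%) were 1.5-fold or more lower, 398 (4.57%) in all. At 2-fold or more the counts were 34 (0.391%) and 84 (0.965%). The median log2 ratio of the 8705 genes was -0.03. These shares are the background for the gene lists below.

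Tfap2d, which encodes the transcription factor AP-2 delta (mm10: chromosome 1, 19103022 to 19166346), was among the 12 genes with the highest ratios. It stood at 61.9 CPM (54.5 to 70.1) against 7.66 CPM (5.71 to 10.1), a ratio of 8.08 (5.96 to 11.1). With every barcode thinned to 12000 UMIs and the classes cut again on the thinned counts, the ratio was 4.86. The thinned classes held 153 barcodes with 2 or more Pou4f3 UMIs and 400 with none, among them all 359 of the undetected class. At full depth a Tfap2d UMI was seen in 113 barcodes (55.1%) of the detected class and in 29 (8.08%) of the undetected class.

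Cartpt, which encodes the precursor of the CART neuropeptides and marks ON-OFF direction-selective ganglion cells (chromosome 13, 99898489 to 99901091), was the most abundant of the high genes. It reached 3316 CPM (3260 to 3372) in the detected class and 696 CPM (676 to 717) in the undetected class, a ratio of 4.76 (4.60 to 4.92). Per barcode the counts ran from 0 to 655 UMIs with a median of 19 in the detected class, and from 0 to 1077 with a median of 3 in the undetected class. The ranges overlapped fully, and the single highest barcode belonged to the undetected class. Counts of 20 or more were found in 99 barcodes (48.3%) with Pou4f3 and 24 (6.69%) without it.

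Further transcription factor genes were among the 12 highest ratios. Runx1, a Runt-domain factor, had a ratio of 4.74 (3.10 to 7.44), from 21.4 and 4.51 CPM. Prdm8, of the PR-domain family, stood at 22.6 and 6.16 CPM, a ratio of 3.67 (2.51 to 5.44), and Neurod2, a basic helix-loop-helix factor, at 63.1 and 21.2 CPM, a ratio of 2.98 (2.42 to 3.69). Bcl11b, a zinc finger factor, had a ratio of 2.59 (1.85 to 3.64). Also in this set were Ccer2 (4.62, 3.20 to 6.8), the serpin gene Serpinb1b (2.91, 2.13 to 4.02), the secreted guidance gene Sema3a (2.85, 2.18 to 3.74) and Amhr2, the receptor gene for anti-Müllerian hormone (2.82, 1.99 to 4.02). All 12 were detected in a larger share of barcodes with Pou4f3, from 16.1% (Serpinb1b) to 97.1% (Cartpt), than without it. The next 12 ratios, from 2.57 to 2.23, included Sox6, Meis2, Marcksl1 and the GABA receptor subunit gene Gabrg3. They also included 1700086L19Rik (2.34, 1.57 to 3.52) and Dbpht2 (2.29, 1.72 to 3.04), both non-coding in the annotation, which lie beside each other on the plus strand of chromosome 12, at 74284242 to 74295945 and 74296668 to 74302008.

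The 3 lowest ratios were those of Pcdh20, Prph and Spp1. Pcdh20, a protocadherin gene, had 2 UMIs in the detected class and 101 in the undetected class, a ratio of 0.03 (0.0039 to 0.12). Prph, which encodes the intermediate filament protein peripherin, stood at 4.18 against 91.9 CPM, 22-fold lower (13.6 to 38.0). Spp1, the osteopontin gene used as a marker of alpha ganglion cells, stood at 5.65 against 108 CPM, 19.2-fold lower (12.7 to 30.4). All 3 were rare in both classes, and even in the undetected class Prph was found in 75 of 359 barcodes and Spp1 in 38, with up to 57 and 121 UMIs in 1 barcode.

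Genes of the intrinsically photosensitive ganglion cells (ipRGCs), which sense light by themselves through melanopsin, were low together. Opn4, the melanopsin gene, stood at 6.14 against 46.3 CPM, 7.53-fold lower (5.01 to 11.8). Without the Pou4f1 term of the gate Opn4 was 16.5-fold lower, and with a mitochondrial maximum of 5% it was 15.9-fold lower. Within the clusters described below it was 1.09-fold lower. Cluster 1, with Opn4 among its leading genes, held 1 detected and 64 undetected barcodes, so the comparison there rests on 1 detected barcode. Eomes, which encodes the T-box factor Tbr2 of these cells, stood at 3.69 against 31.3 CPM, 8.48-fold lower (5.02 to 15.4), and was found in 5 of 205 and 74 of 359 barcodes. Tbx20, a second T-box gene, was 12.4-fold lower (6.14 to 29.2).

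The other genes of the lowest 12 were Slc7a11, of the cystine transporter (12.9-fold lower, 5.78 to 35.9), the protein kinase C theta gene Prkcq (11.5-fold, 5.13 to 32.0), Vat1l (7.23-fold, 4.4 to 12.7), Foxp2, of the forkhead factor that marks F-RGCs (5.52-fold, 3.8 to 8.28), Parm1 (4.82-fold, 3.37 to 7.11) and the zinc finger gene Zic1 (4.24-fold, 2.41 to 8.04). The value of Zic1 varied with the choice of barcodes: it was 10.0-fold lower without called doublets, 41.6-fold lower for 3 or more Pou4f3 UMIs, and had a ratio of 1.03 for 1 or more. Foxp2 was found in 13 of 205 barcodes with Pou4f3 and in 78 of 359 without it. Parm1, the most widespread of the lowest 12, was found in 25 and 143 barcodes. The next 12 ratios ran from 0.255 to 0.33 and included Ctxn3, the potassium channel gene Kcnk2, Plpp4, Ndnf and Spon1. Ctxn3 had the highest level among them, with 61.7 CPM in the detected and 242 CPM in the undetected class.

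In 4 genes with ratios that would have placed them among the 20 highest or 20 lowest, a single barcode held over 20% of the UMIs, and they are set apart. Cdkn1c, the cell cycle inhibitor p57 gene, had 4 UMIs against 273, of which 1 barcode held 203. Npy, the neuropeptide Y gene, had 7 against 143, A230065H16Rik had 15 against 87, and S100b had 90 against 59 with 31 in 1 barcode of the detected class, and a ratio of 0.846 in thinned barcodes.

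**Figure D2:**
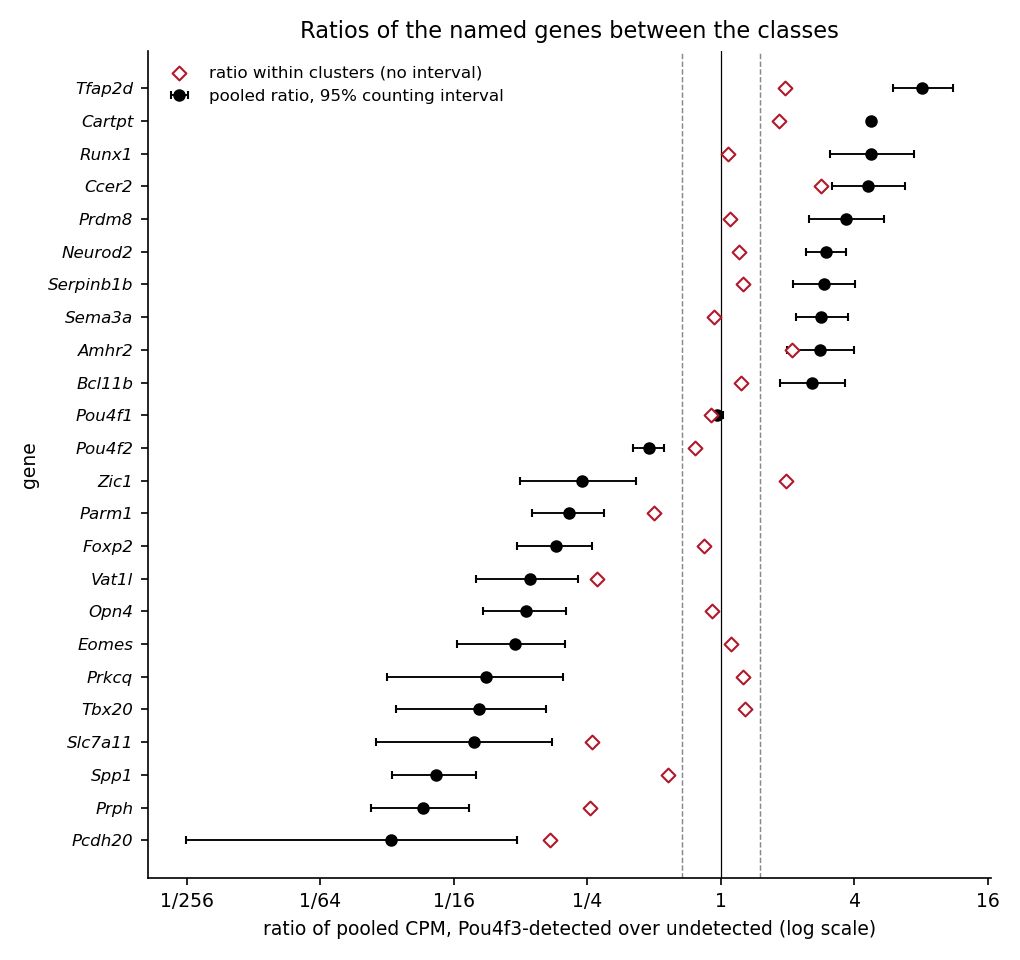
Ratio of pooled CPM in the detected over the undetected class (log axis) for genes of the 12 highest and 12 lowest ratios, Pou4f1 and Pou4f2. Black points show the pooled ratio with its 95% counting interval, open diamonds the ratio within expression clusters, and dashed lines 1.5-fold either way; Tfap2d stands at 8.08, Cartpt at 4.76, and most diamonds lie nearer to 1 than the points.

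The other members of the gene family differed from each other. Pou4f2 stood at 51.1 CPM (44.4 to 58.5) in the detected class and 108 CPM (100.4 to 116) in the undetected class, 2.12-fold lower (1.81 to 2.48). It was found in 111 barcodes (54.1%) with Pou4f3 and in 248 (69.1%) without it, with at most 8 and 13 UMIs. Pou4f1 stood at 469 and 486 CPM, a ratio of 0.96 (0.91 to 1.02). Since the gate demands Pou4f1, its level is partly set by the choice of barcodes. Per barcode, Pou4f1 ran from 1 to 26 UMIs with a median of 9 in the detected class and from 1 to 33 with a median of 7 in the undetected class. A further 68 barcodes passed all terms of the gate except Pou4f1. In these, 2 had a single Pou4f3 UMI and none had 2 or more, while 51 had a Pou4f2 UMI.

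Promoter sequence was searched for POU4F-type motifs, since these factors bind AT-rich sites. The 250 bases upstream of each RefSeq start (build GRCm38.p6, the same assembly as mm10) were searched on both strands. Entries were found for 10 of the 12 highest and 11 of the 12 lowest genes, and for Pou4f1 and Pou4f2. The motif ATAATTAAT is rare, being present in 0.259% of 32851 promoters, and was in none of these genes. Its shorter form ATAATTA (2.50% of promoters) was in none either. TAATTA (4.84%), which ATAATTA contains, was in 1 of the lowest genes, Spp1, and ATTAAT (4.39%), which ATAATTAAT contains, in 1, Eomes. The matched Spp1 window lies inside the annotated gene (chromosome 5, 104435118 to 104441050). The other Spp1 entry, just before the gene at 104434861 to 104435110, had no match. None of these 4 motifs was in a promoter of the highest genes. A match to the cAMP response element TGACGTCA (1.55%), searched for after the sequences had been seen, was in 2 of the highest genes, Cartpt and Ccer2, and in none of the lowest. The 4 promoters with a match are shown 5′ to 3′ on the gene's strand, with the motif in capitals. They are, in order, chr13:99900684-99900933 (minus strand), chr7:28755924-28756173 (plus), chr5:104435942-104436191 (plus) and chr9:118477939-118478188 (plus).
Cartpt: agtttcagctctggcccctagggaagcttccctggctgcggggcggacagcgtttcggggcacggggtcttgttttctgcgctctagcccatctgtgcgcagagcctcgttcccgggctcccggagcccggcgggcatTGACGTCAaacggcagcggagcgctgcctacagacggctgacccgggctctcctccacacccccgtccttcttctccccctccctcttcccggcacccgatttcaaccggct
Ccer2: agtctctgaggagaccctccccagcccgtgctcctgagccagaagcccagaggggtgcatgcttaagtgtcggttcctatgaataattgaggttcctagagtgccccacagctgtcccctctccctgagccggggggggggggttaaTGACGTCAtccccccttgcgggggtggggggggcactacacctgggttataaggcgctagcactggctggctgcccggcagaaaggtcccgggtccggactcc
Spp1: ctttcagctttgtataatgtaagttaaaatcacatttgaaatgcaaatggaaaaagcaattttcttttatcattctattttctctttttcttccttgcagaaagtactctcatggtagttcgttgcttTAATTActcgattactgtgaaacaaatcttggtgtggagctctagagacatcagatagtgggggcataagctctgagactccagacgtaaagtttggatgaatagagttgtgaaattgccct
Eomes: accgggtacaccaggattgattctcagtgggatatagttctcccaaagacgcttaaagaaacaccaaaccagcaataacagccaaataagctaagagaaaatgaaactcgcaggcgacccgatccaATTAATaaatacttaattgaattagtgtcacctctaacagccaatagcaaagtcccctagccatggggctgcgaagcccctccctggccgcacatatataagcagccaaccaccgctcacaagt
A match shows only that these letters are in the window, and was not tested as a binding site. Foxp2 had no entry.

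The levels of the high genes were then followed across the number of Pou4f3 UMIs, over 359 barcodes at 0, 121 at 1, 65 at 2, 79 at 3 to 4 and 61 at 5 or more. Runx1 stood at 4.51, 5.98, 11.5, 17.4 and 35.4 CPM in this order. Tfap2d ran from 7.66 through 30.3, 47.8 and 61.1 to 76.1 CPM, and Cartpt from 696 through 1838, 2836 and 2955 to 4194 CPM. These 3 genes were higher at each step. For Cartpt the intervals of neighbouring levels overlapped only between 2 and 3 to 4 UMIs. For Tfap2d they were apart only between 0 and 1 UMI, and for Runx1 only between 3 to 4 and 5 or more. Median depth was also higher with more Pou4f3, from 16776 UMIs at 0 to 19218 at 5 or more, and its part in these steps was not tested.

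Of the 12 highest genes 4 were higher at each of the 4 steps, and so were 4 of the next 12, among them Gabrg3, Sox6 and Marcksl1. Others did not follow the Pou4f3 count beyond the first steps. Neurod2 stood at 66.7, 65.0 and 57.7 CPM at the 3 levels of the detected class, and Prdm8 at 21.4, 26.4 and 19.2 CPM. Serpinb1b and the non-coding gene Gm17750 were highest at middle levels: at 5 or more Pou4f3 UMIs they stood at 13.8 and 7.69 CPM, against 34.7 and 39.2 CPM at 3 to 4.

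Most of the low genes were already lower at 1 Pou4f3 UMI. Prph stood at 91.9 CPM at 0 UMIs and 6.83 CPM at 1 UMI, Eomes at 31.3 and 2.13 CPM, Opn4 at 46.3 and 1.71 CPM, and Tbx20 at 24.3 and 0.427 CPM. Foxp2 and Zic1 did not: at 1 UMI they stood at 50.4 and 35.0 CPM, above the 42.1 and 14.6 CPM at 0, and only then at 14.8 and 10.7 CPM at 2 UMIs and at 0.769 CPM and no UMI at 5 or more. For Zic1 the intervals at 0 and 1 UMI did not overlap (11.8 to 17.8 and 27.8 to 43.5 CPM), for Foxp2 they did (37.3 to 47.3 and 41.7 to 60.3 CPM). With the barcodes of 1 UMI counted as detected, the ratio of Zic1 was 1.03. Pou4f2 was at 108 CPM at 0 and between 42.3 and 58.5 CPM at all other levels.

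**Figure D3:**
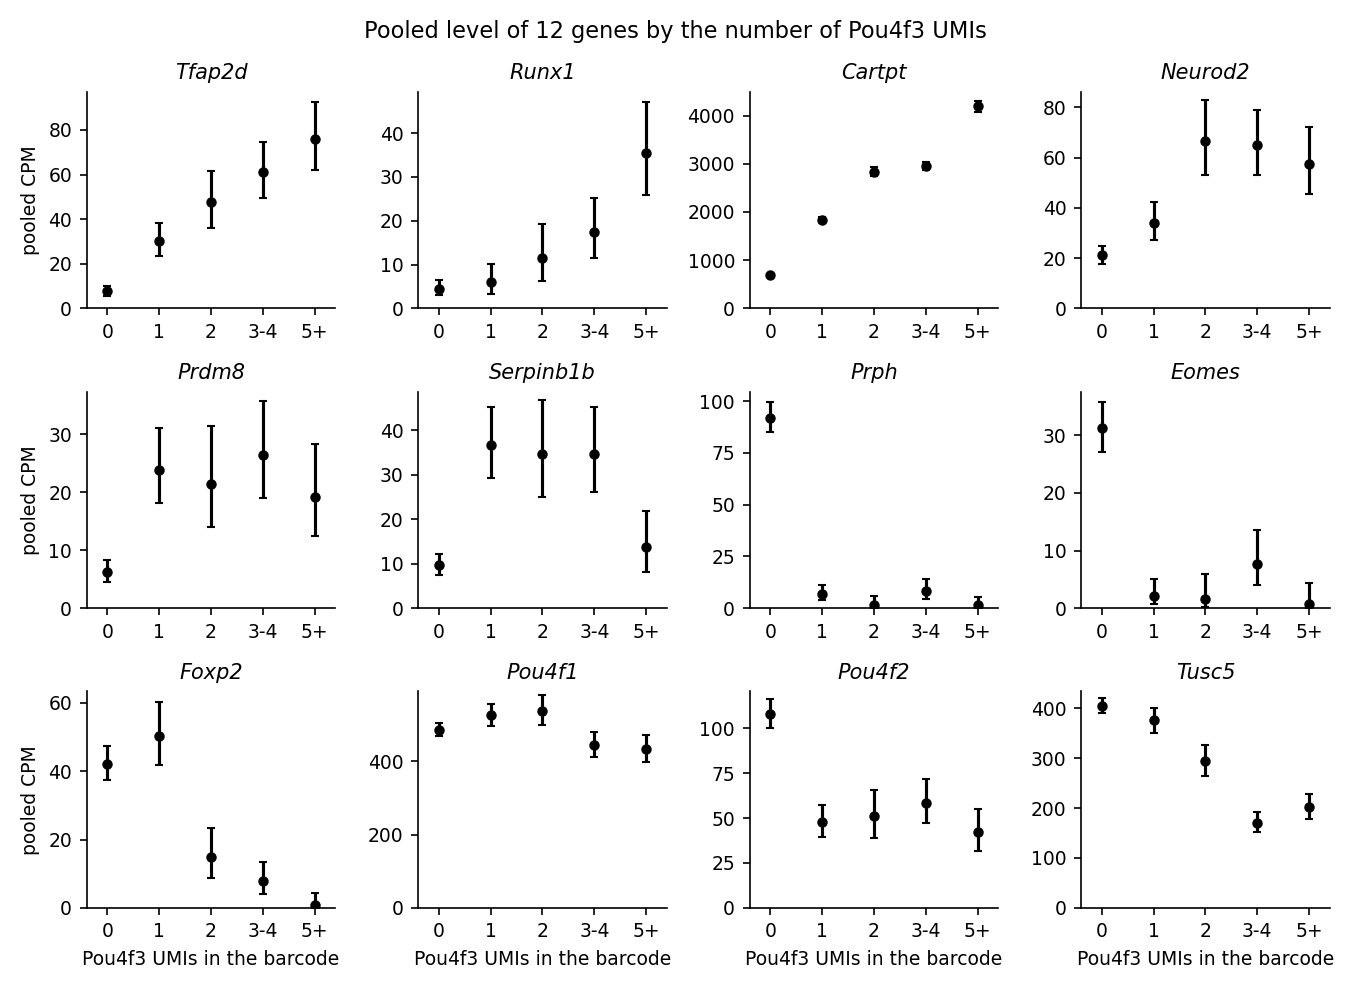
Pooled CPM of 12 genes (vertical axes, linear, from 0, each with its own scale) against the number of Pou4f3 UMIs in the barcode (horizontal axis: 0, 1, 2, 3 to 4, 5 or more), with 95% counting intervals. Runx1 goes from 4.51 to 35.4 CPM across the levels, while Foxp2 goes from 50.4 CPM at 1 UMI to 0.769 CPM at 5 or more.

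Gene lists were then read against the background of 1.33% higher and 3.24% lower. They were chosen with earlier results on these cells known and overlap in part, so their counts are descriptions. Together they held 616 genes, of which 448 had the 100 UMIs needed. Of these, 32 (7.14%) were 1.5-fold or more higher and 57 (12.7%) lower.

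Among 57 measured transcription factor genes of ganglion cells, 11 were higher and 10 lower, with a median log2 ratio of -0.07. Besides those named above, Meis2, a TALE homeodomain gene, stood at 153 and 61.3 CPM, a ratio of 2.50 (2.2 to 2.84), and Sox6 at 23.6 and 9.32 CPM, a ratio of 2.53 (1.82 to 3.54). The chromatin organizer gene Satb1 had a ratio of 1.79 (1.57 to 2.05), and the LIM-homeodomain gene Isl2 of 1.59 (1.37 to 1.84). On the low side, the nuclear receptor genes Nr2f1 and Nr2f2 were 1.95-fold (1.5 to 2.56) and 2.90-fold (2.03 to 4.23) lower, the homeobox gene Irx2 2.10-fold (1.65 to 2.68) and Zfhx3 1.91-fold (1.74 to 2.10). The list was thus split between both directions.

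Genes reported as partners of Brn3 factors or as dependent on them gave 1 higher (Isl2) and 5 lower of 24. Tusc5, the most abundant of these 6, stood at 218 against 405 CPM, 1.86-fold lower (1.72 to 2.01). Eomes, Irx2, Zfhx3 and the netrin receptor gene Unc5d (2.61-fold lower, 1.93 to 3.59) were the others. Isl1 and Ebf1 were within 1.5-fold, at ratios of 0.778 and 0.779, and so were Ebf3 (1.41), Tbr1 (1.41) and Ret (1.09). Of 28 hair cell genes and reported Brn3c targets, only 6 were measured and 8 had no UMI in either class. Nr2f2 was the one past 1.5-fold, and Caprin1, a reported target, stood at 108 CPM in both classes. Gfi1, a zinc finger gene of hair cells, had 2 UMIs in the detected and 34 in the undetected class.

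Among measured neurotrophic receptor genes, Ntrk2, of the receptor for BDNF, was near equal at 38.6 and 38.0 CPM, and Ntrk3, of the receptor for neurotrophin-3, was lower at 37.3 against 69.6 CPM, 1.86-fold (1.55 to 2.25). Counts of Ngfr, the p75 receptor gene, were 3 UMIs in the detected class and 41 in the undetected class.

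Marker lists of ganglion cell types differed in direction. Of 8 measured ipRGC markers 5 were lower and none higher, with a median log2 ratio of -1.21: besides Opn4, Eomes and Tbx20 these were Igf1 (2.87-fold lower, 2.45 to 3.39) and Adcyap1, the PACAP gene (1.87-fold, 1.49 to 2.37). Of 9 Tbr1/J-RGC markers 5 were lower, among them Ano3 (2.60-fold, 2.16 to 3.14), Plpp4 (3.29-fold, 1.91 to 6.01, but 1.03-fold within clusters) and the adhesion gene Jam2 (1.99-fold, 1.61 to 2.47), while Syt2 was higher at 1.62 (1.33 to 1.97). The within-cluster value of Plpp4 leaves out cluster 4, led by Plpp4, which held 45 undetected barcodes and no detected one. Tbr1, the defining factor, was within 1.5-fold at 15.2 against 10.8 CPM. F-RGC markers gave 2 lower of 6 (Foxp2 and Pcdh20) and alpha markers 1 lower of 4 (Spp1).

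Some markers of N-RGCs and ON-OFF direction-selective cells were higher. Of 5 N-RGC markers 3 were higher, among them Neurod2 and Penk, the proenkephalin gene (75.2 against 36.5 CPM, ratio 2.06, 1.73 to 2.45). The difference in Penk was lost at a minimum of 16000 UMIs per barcode (ratio 1.00) and within clusters (1.04). Zic1 was lower. Of 4 direction-selective markers Cartpt and Satb1 were higher and 1 was lower. Mmp17, a further marker of these cells, was under the threshold with 43 and 26 UMIs. The T5/W3 list gave 2 higher, among them Lypd1 (ratio 1.86, 1.55 to 2.24), and 2 lower (Tusc5 and Sdk2, the latter 2.07-fold, 1.49 to 2.93) of 7.

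Among genes for how ganglion cells wire and signal, 6 of 74 adhesion and guidance genes were higher and 13 lower. The higher ones were Cdh11 (2.21, 1.52 to 3.24), Kirrel3 (1.97, 1.43 to 2.73), Cntn5 (1.86, 1.52 to 2.29), Negr1, Sema3e and Flrt2. After Pcdh20, the lowest were Chl1 (2.99-fold, 2.05 to 4.45), Unc5d and Sdk2. Of 21 neuropeptide and secreted factor genes 3 were higher, Cartpt, Penk and Il12a (1.80, 1.5 to 2.16), and 7 lower, including Fgf1 (2.27-fold, 1.93 to 2.69), Igf1 and Spp1. Of 45 transmitter receptor genes 4 were higher, led by Gabrg3 (2.23, 1.90 to 2.61), and 7 lower, led by Grin3a (2.25-fold, 1.62 to 3.18). Of 51 voltage-gated channel genes 1 was higher (Kcnd3, 1.53, 1.29 to 1.82) and 5 lower, led by Kcnk2 (3.48-fold, 2.42 to 5.13) and Cacna2d2 (2.04-fold, 1.72 to 2.43). Within the clusters described below, Gabrg3 had a ratio of 1.12 and Kcnk2 was 1.04-fold lower, so that neither was past 1.5-fold. Cluster 4, with Kcnk2 among its leading genes, held no detected barcode and does not enter the within-cluster ratio.

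Synaptic and calcium-binding genes held several abundant differences. Cplx2, which encodes complexin 2 of the release machinery, stood at 475 against 250 CPM, a ratio of 1.90 (1.78 to 2.03) that was 0.897 within the clusters described below, and Rab3b had a ratio of 1.91 (1.35 to 2.71) that was 1.34 without the Pou4f1 term of the gate, while Syt6 was 2.88-fold lower (2.26 to 3.71). Of 29 synaptic genes, 3 were higher and 1 lower. Calb1, the calbindin gene, stood at 110 against 259 CPM, 2.35-fold lower (2.12 to 2.61), and Necab3 had a ratio of 2.03 (1.48 to 2.79). Of 22 calcium-binding genes 3 were higher and 2 lower.

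General lists held no higher gene and at most 3 lower ones each. Of 19 measured ganglion cell class genes Prph alone was lower (5.26%, against 3.24% of all genes). None of 18 injury and survival genes, 10 heat shock and dissociation genes or 13 mitochondrially encoded genes was past 1.5-fold in either direction. Of 29 axon cytoskeleton genes 1 was lower (3.45%, Prph again), and of 15 immediate-early genes 1 (6.67%: Egr4, 2.2-fold, 1.54 to 3.21). Of 32 amino acid and energy genes 3 were lower (9.38%): Slc7a11, the serine synthesis gene Phgdh (2.84-fold, 2.09 to 3.93) and the amino acid transporter gene Slc7a5 (1.77-fold, 1.34 to 2.37).

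Markers of other retinal cells were present in both classes. Summed over each list, rod markers stood at 935 CPM in the detected and 1013 in the undetected class, bipolar markers at 498 and 588, horizontal at 619 and 781, cone at 116 and 162, amacrine at 581 and 460, Müller glia at 488 and 410, microglia at 203 and 155 and astrocyte at 22.9 and 10.5 CPM. Endothelial, pericyte, pigment epithelium and erythrocyte lists each summed to at most 12.9 CPM in both. Markers without a UMI in either class were 2 endothelial genes and 1 each of the astrocyte, pigment epithelium and erythrocyte lists. The part of other cells' RNA in the ratios was not tested. Scrublet called 5 of 205 detected barcodes (2.44%) and 11 of 359 undetected barcodes (3.06%) doublets, and 58 of all 3237 (1.79%). Without the barcodes highest in rod or Müller glia markers, 112 genes were higher and 259 lower, and without the called doublets 119 and 272.

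**Figure D4:**
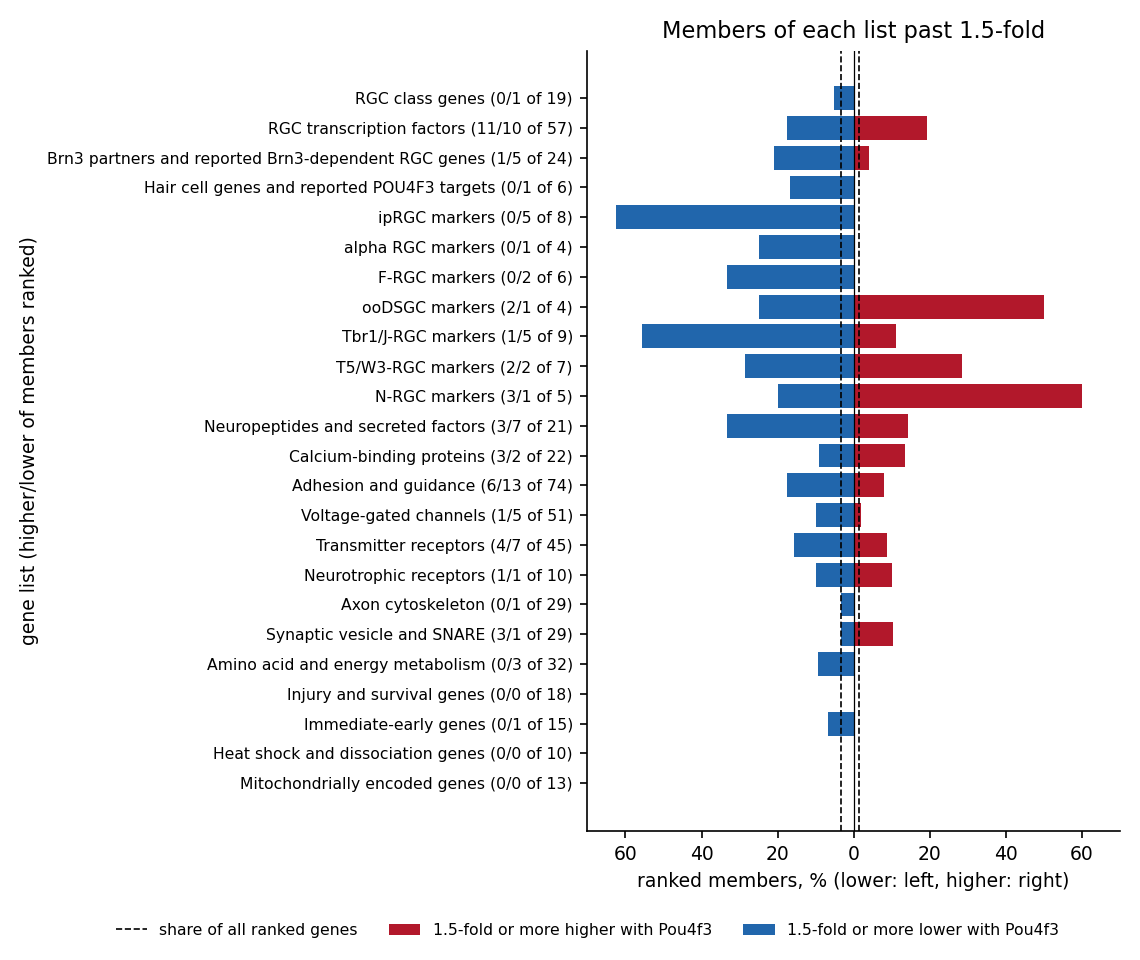
Share of measured members of each gene list that were 1.5-fold or more higher (red, right) or lower (blue, left) in the detected class, in %. Dashed lines mark the shares over all 8705 genes, 1.33% and 3.24%; ipRGC markers reach furthest left (5 of 8) and N-RGC markers furthest right (3 of 5).

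The share of barcodes with a UMI was also compared at equal depth, 12000 UMIs per barcode. Tfap2d was then found in 43.4% of the detected class (36.5% to 50.5%) and 7.24% of the undetected class (4.79% to 10.4%). In the Lhx1-high barcodes, it was at 0.877%. Cartpt was found in 93.2% and 75.2%, but also in 47.4% of the Lhx1-high barcodes, so most low Cartpt counts cannot be told from free RNA. Prph, Pcdh20 and Spp1 were found in 3.90%, 0.976% and 4.39% of the detected class, against 6.14%, 3.51% and 4.39% in Lhx1-high barcodes. These shares of the detected class cannot be told from free RNA, and the source of their UMIs was not tested. Vat1l and Prkcq were in 87.7% and 14.0% of Lhx1-high barcodes, above both classes.

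Turning the question around, the share with Pou4f3 was read among barcodes with 2 or more UMIs of a type marker, again at 12000 UMIs. It was 79.7% of 59 barcodes with Tfap2d (67.2% to 89.0%), 65.0% of 80 with Neurod2 (53.5% to 75.3%) and 62.5% of 72 with Penk (50.3% to 73.6%), against 41.6% of all gated barcodes. It was 51.2% of 465 with Cartpt and 25.9% of 162 with Pou4f2 (19.4% to 33.4%). It was 24.7% of 81 with Foxp2 (15.8% to 35.5%), 10.0% of 20 with Spp1 and 2.78% of 36 with Eomes. Pou4f3 was found in none of 24 barcodes with 2 or more Opn4 UMIs (a count of 0 allows up to 12.5%) and in none of 23 with 2 or more of Tbx20 (up to 13.0%). At full depth, 13 of the 205 detected barcodes held at least 1 Opn4 UMI.

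The detected class was not uniform. The gated barcodes were clustered on gene expression without the 3 Pou4f genes and the gate genes, giving 22 clusters, which are called here by number and leading genes. Clusters are built from the same cells, so their genes are descriptions. In cluster 5 (46 barcodes, with Runx1, Lypd1 and Sox6 among its leading genes), a Pou4f3 UMI was found in 91.3% after thinning, and Pou4f3 stood at 277 CPM (244 to 313), the highest of all clusters.

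Further clusters rich in Pou4f3 had other leading genes. Cluster 6 (41 barcodes: Cck, Cbln2, Sema3a and Cartpt) had Pou4f3 in 90.2%, cluster 10 (28: Penk, Prdm8 and Prlr) in 89.3%, cluster 22 (9: Prdm8, Neurod2 and Amhr2) in 88.9%, cluster 13 (23: Tbr1 and Crh) in 82.6% and cluster 8 (36: Chrm2 and Ppp1r1c) in 77.8%. Cluster 9 (28: Serpinb1b and Gm17750), cluster 11 (27: Cidea, Ccer2, Neurod2 and Cartpt) and cluster 12 (25: Shisa9, Meis2 and Penk) followed with 64.3%, 63.0% and 56.0%. These 9 clusters held 85.9% of the detected class and 38.4% of all gated barcodes. Tfap2d was shared by several of them, with 111, 115, 100.4 and 72.2 CPM in clusters 6, 11, 13 and 5, and was low in clusters 8 (7.64 CPM) and 9 (1.70 CPM). Cartpt was highest in clusters 11 and 6, with 9788 and 8734 CPM. These genes were not confined to the clusters rich in Pou4f3. Cluster 7 (38: Calb1, Fam19a1 and Hs3st4) had Cartpt at 4658, Tfap2d at 51.4 and Runx1 at 32.4 CPM. Pou4f3 was found in 31.6% of it, and it held 7 detected and 19 undetected barcodes.

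At the other end, no Pou4f3 UMI was found after thinning in cluster 1 (65 barcodes: Spp1, Cdkn1c and Opn4), cluster 16 (22: Npy and Syt6) and cluster 21 (14: Tbx20, Prph and Synpr), which allows shares of up to 4.62%, 13.6% and 21.4%. It was found in 2.17% of cluster 4 (46: Plpp4, Slc7a11 and Kcnk2). Intermediate shares were found in cluster 2 (63: Foxp2, Phgdh and Pcdh20) with 12.7% and 9.85 CPM, and cluster 3 (62: Ppp1r17, Lypd1 and Sptssb) with 37.1% and 31.9 CPM of Pou4f3. Pou4f1 stood at 868 and 934 CPM in these 2, above the 528 CPM of cluster 5. Clusters 18 and 20, 32 barcodes in all, were led by microglia genes (Ccl3, Tyrobp, C1qc) and bipolar cell genes (Trpm1, Pcp2). Without them 117 genes were higher and 286 lower.

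**Figure D5:**
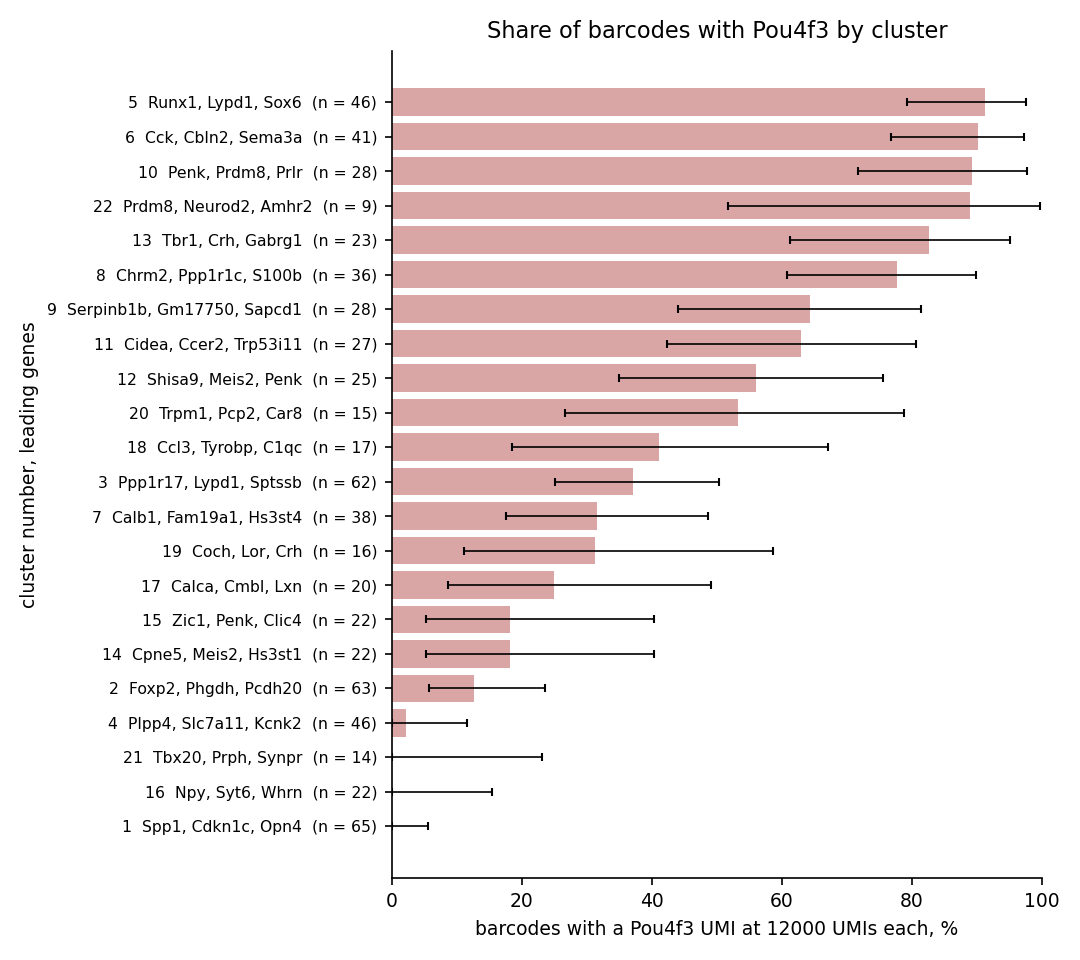
Share of barcodes with a Pou4f3 UMI at 12000 UMIs per barcode (%, with 95% counting intervals) in each of 22 expression clusters, named by leading genes. Cluster 5 lies highest at 91.3%, and clusters 1, 16 and 21 are at 0.

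Pairs of genes were also counted inside the detected class. Runx1, Neurod2, Prdm8 and Penk are among the leading genes of the clusters above. The pair counts therefore describe the same barcodes again and are no separate support for the clusters. Of 57 barcodes with Neurod2 and 40 with Prdm8, 32 had both, against 11.1 from the product of the shares, and of 57 with Neurod2 and 39 with Penk, 26 (10.8). Of 42 barcodes with Runx1, none had Neurod2 (11.7) and 3 had Prdm8 (8.20). Tfap2d was found in both sets, in 31 of the 42 Runx1 barcodes (23.2) and in 35 of the 57 Neurod2 barcodes. The latter count was near the 31.4 from the product of the shares. Of 99 barcodes with 20 or more Cartpt UMIs, 80 had Tfap2d (54.6). None of Tfap2d, Runx1, Neurod2 and Prdm8 was found in 56 of the 205 barcodes, and no barcode had all 4. Barcodes differ in depth, which these pair counts share.

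The classes were also compared within clusters. There the ratios of the 22 genes described above from the 12 highest and 12 lowest were all nearer to 1. These genes were picked as extremes of the pooled ratio in the same barcodes, so a move towards 1 is favoured by the choice. Over all 8705 genes, which were not picked by their ratio, 39.8% were nearer to 1. Within clusters 209 genes were 1.5-fold or more higher and 398 lower. Of 89 genes past 1.5-fold that were followed singly, 28 stayed past it within clusters. Clusters 4, 16 and 21, with 45, 21 and 14 undetected barcodes, held no detected barcode and do not enter these ratios. Genes that lead them, such as Plpp4, Slc7a11 and Kcnk2 in cluster 4 and Tbx20 and Prph in cluster 21, are compared without those barcodes. Clusters 1, 2 and 15 held 1 detected barcode each, against 64, 55 and 15 undetected ones. For genes that lead these, such as Opn4 and Spp1, Foxp2 and Zic1, the comparison in that cluster rests on 1 detected barcode. Over the 19 clusters that held both classes (205 detected and 279 undetected barcodes), Ccer2 had a ratio of 2.85, Amhr2 2.09, Tfap2d 1.94 and Cartpt 1.83. Runx1 (1.07), Prdm8 (1.10) and Neurod2 (1.21) were near 1, and Sema3a was below it at 0.94. Pcdh20, Slc7a11, Prph and Vat1l were 5.91-fold, 3.82-fold, 3.91-fold and 3.63-fold lower, from 2, 6, 17 and 17 UMIs in the detected class. Eomes, Prkcq, Tbx20 and Zic1 were above 1, at 1.12, 1.27, 1.28 and 1.97, from 15, 6, 8 and 14 UMIs in that class. The within-cluster ratios carry no interval, so the direction of these rare genes within clusters is not set. Pou4f2 stood at 0.77. Of the 116 higher genes 97 were above 1 within clusters and 34 past 1.5-fold, and of the 282 lower genes 245 were below 1 and 107 past 1.5-fold. Since clusters were built from these genes too, the within-cluster ratios are descriptions.

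The same contrast was read in barcodes that the depth limit had left out. With at least 8000 and under 12000 UMIs, 115 barcodes passed the other gate terms, 21 with 2 or more Pou4f3 UMIs and 70 with none. The classes held 213697 and 738049 UMIs, so that many genes had too few UMIs to set a direction. Of the 12 highest genes 10 were higher in the detected class, and 7 had a ratio whose interval lay above 1. The other 5 had at most 32 UMIs each. Serpinb1b (0 against 6 UMIs) and Bcl11b (1 against 6) were lower in the detected class. Tfap2d stood at 51.5 against 4.06 CPM and Cartpt at 1797 against 554 CPM. Of the 12 lowest genes 4 had an interval below 1, Prph, Vat1l, Tbx20 and Foxp2, and the other 8 had at most 22 UMIs each. Pou4f2 stood at 70.2 against 111 CPM, with an interval of the ratio from 0.338 to 1.10.

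Some genes share sequence with a neighbour, and whether the counting used the strand is not given in the sources used here. In the annotation, Tfap2d, Runx1, Ccer2, Prdm8, Slc7a11, Vat1l and Zic1 each overlap a gene on the opposite strand. Reads of such pairs may have been assigned to either gene.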

How the data were processed

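Single-cell RNA was sequenced from 4 retinas with the 10x Chromium 3′ kit, per the labels' protocols. The deposited table holds counts: whole numbers of UMIs per gene and barcode that the authors left without normalization, for 27999 genes. A second deposited table pairs identifiers with symbols. The submitters' processing notes name Cell Ranger (no version), Seurat 2.2 and mm10. How the matrix was made from the reads is not given in the sources used here. All barcodes were treated as 1 pooled sample, so a count model across samples could not be fitted.

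The gene that splits the classes, the gene lists and the comparisons were chosen with earlier results of these data known. Ratios are of pooled CPM with exact conditional intervals, CPM values carry exact Poisson intervals and shares exact Clopper-Pearson intervals, all at 95% and for counting error only. A share of 0 carries the limit of 3 counts. Ratios were ranked for genes that reached 100 UMIs in the classes together. The text names the top 12 and bottom 12 of this ranking, leaving out genes for mitochondrial or ribosomal proteins and any gene of which 1 barcode held over 20% of the UMIs. Pou4f1 and Pou4f2 were always named, and so were list members at 1.5-fold or more, at most 4 per list and direction. Some genes that this rule picks are not reported here. The next 12 genes per direction, the co-detected pairs, members within 1.5-fold and genes under 100 UMIs were picked after their values were seen. Thinning to 12000 UMIs was without replacement with seed 0. Ratios in thinned barcodes are between classes cut again on the thinned Pou4f3 counts, while thinned shares by class keep the classes of the full counts. Leiden clustering (scanpy 1.11.5, python-igraph 0.11.9) was run on 2000 variable genes. Within clusters, ratios were combined by the Mantel-Haenszel estimator. Scrublet was run on all barcodes, and called doublets were left in except in 1 alternative. Counts of 1.5-fold differences and intervals were tested on simulated class totals with counting error only. The simulation held no differences between barcodes, so it cannot show how the calls behave where barcodes differ. Python 3.11.15, numpy 2.4.6, scipy 1.17.1 and pandas 2.3.3 were used. The alternatives are given at the end.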

Additional observations from a re-analysis of the deposited data

Results flagged for a closer look

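Barcodes outside the compared classes also held Pou4f3. Of 115 barcodes that passed the gate terms with at least 8000 and under 12000 UMIs, 45 had a Pou4f3 UMI (39.1%, 30.2% to 48.7%), above the 2.63% that a count of 0 allows in the Lhx1-high barcodes. Of 68 barcodes with Pou4f1 at 0 that passed all other terms, 2 had a Pou4f3 UMI (2.94%, 0.358% to 10.2%), a value whose interval includes 2.63%.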

How the results depend on the processing

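With 1 pooled sample, no replicate could be left out. No paired analysis was possible because no barcode carries a retina number and the result comes from no test. The counts of genes past 1.5-fold (116 higher, 282 lower) depend on the minimum of UMIs: they were 325 and 711 at a minimum of 30 and 41 and 87 at 300. Within clusters 209 genes were higher and 398 lower. Under the other 13 alternatives, 1 of them (without the clusters led by microglia or bipolar genes) chosen after seeing the data, the counts ran from 99 to 133 and from 248 to 366. With thinned barcodes, and the classes cut again on the thinned counts, the ratio of Pou4f2 was 0.61. It was 0.36 at a minimum of 16000 UMIs per barcode and 0.77 within clusters. That of Pou4f1 was 0.90 for 3 or more Pou4f3 UMIs, 1.14 without the Pou4f1 term of the gate, 1.14 at a minimum of 16000 UMIs and 0.91 within clusters. The cause was not tested. The 12 highest genes were at 1.5-fold or more in every alternative except the within-cluster one. They were picked as the highest ratios in these barcodes, which most alternatives share. The minimums of 30 and 300 UMIs leave the ratio of a single gene unchanged, so these alternatives could not end a call.

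Of 89 single genes past 1.5-fold, 61 were not past it within clusters, and 19 were not in at least 1 other alternative. The latter included Isl2, Syt2 and Slc7a5 with thinned barcodes (1.44, 1.40 and 0.70), Tusc5 and Kirrel3 with 1 or more Pou4f3 UMIs (0.68 and 1.44) and Kcnd3 at a minimum of 16000 UMIs (1.37). Foxp2 was at 0.55 with 1 or more Pou4f3 UMIs. Direction changed for S100b, with a ratio of 0.846 in thinned barcodes, and for Zic1, with 1.03 for 1 or more Pou4f3 UMIs. Within clusters, ratios turned to below 1 for Sema3a (0.936), Kcnip3 (0.999), Cntn5 (0.905), Kcnd3 (0.989), Shisa9 (0.985) and Cplx2 (0.897). They turned to above 1 for Tbx20 (1.28), Prkcq (1.27), Eomes (1.12), Zic1 (1.97), Cacna1h (1.08), Cacng3 (1.08), Ctxn3 (1.03), Tmem176b (2.91), 1700011I03Rik (1.31) and Ndnf (1.18). Within-cluster ratios carry no interval, and Tbx20, Prkcq, Eomes and Zic1 had only 8, 6, 15 and 14 UMIs in the detected class.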
